A study of Rattus norvegicus with 18 samples.

Results

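The 10 inflammatory chemokines Ccl2, Ccl3, Ccl4, Ccl5, Ccl7, Cxcl1, Cxcl2, Cxcl10, Cxcl11 and Cxcl16 were taken by gene symbol from a table of 30735 genes measured in rat cerebral cortex after subarachnoid hemorrhage (SAH), and each symbol matched 1 row. The rule itself uses no measured value, but the list was chosen with earlier results of these data known. RNA-seq was run on 18 Sprague Dawley rats of 8–10 weeks, with 6 rats in each of 3 groups and 1 library per rat. The SAH 1d and SAH 7d groups were sampled at day 1 and day 7 after a filament was pushed through an artery at the base of the brain, and the sham group had the same operation without the perforation. The labels give no other treatment and no transgene. The study's methods name the cortex of the operated side, whereas the labels name both sides and call the animals mice, although the genes carry rat identifiers. Cortex under the arachnoid holds neurons, glia, vessels, meninges and any leukocytes that have entered, so that more or fewer cells of a type and more or less RNA per cell cannot be told apart.

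Chemokines are small secreted proteins that bind G protein-coupled receptors on leukocytes and direct their movement into tissue. CCL2 and CCL7 attract monocytes through CCR2, CCL3, CCL4 and CCL5 attract monocytes and T cells through CCR1 and related receptors, CXCL1 and CXCL2 attract neutrophils through CXCR2, and CXCL10 and CXCL11 attract activated T cells through CXCR3. CXCL16 differs in being made as a transmembrane protein that is released by the proteases ADAM10 and ADAM17, and its receptor is CXCR6. Most of these genes are nearly silent in resting brain and are switched on by NF-kB after TNF or interleukin-1, and Cxcl10 and Cxcl11 also by interferons.

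RefSeq promoters (build GRCr8) were matched for 6 of the 10 chemokines. The 250 bases before the start of 4 of them are shown because they form neighbouring pairs of genes that lie next to each other on chromosome 14 and are described together below. Capitals mark matches to an NF-kB motif on either strand and, in Cxcl10, to an interferon response motif. Matches on the 2 strands that overlap are merged into 1 run of capitals.
Cxcl1 (chr14:17479322-17479571, minus strand): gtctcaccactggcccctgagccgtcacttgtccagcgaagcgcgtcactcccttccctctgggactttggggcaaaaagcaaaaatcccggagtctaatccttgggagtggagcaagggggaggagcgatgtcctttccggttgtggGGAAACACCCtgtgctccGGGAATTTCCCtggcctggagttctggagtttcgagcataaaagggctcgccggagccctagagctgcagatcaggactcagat
Cxcl2 (chr14:17467256-17467505, minus strand): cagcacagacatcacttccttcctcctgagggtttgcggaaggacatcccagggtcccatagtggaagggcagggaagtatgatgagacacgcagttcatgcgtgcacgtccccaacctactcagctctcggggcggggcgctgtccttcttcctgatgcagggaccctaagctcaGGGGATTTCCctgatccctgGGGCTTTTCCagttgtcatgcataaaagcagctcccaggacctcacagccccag
Cxcl10 (chr14:15988816-15989065, plus strand): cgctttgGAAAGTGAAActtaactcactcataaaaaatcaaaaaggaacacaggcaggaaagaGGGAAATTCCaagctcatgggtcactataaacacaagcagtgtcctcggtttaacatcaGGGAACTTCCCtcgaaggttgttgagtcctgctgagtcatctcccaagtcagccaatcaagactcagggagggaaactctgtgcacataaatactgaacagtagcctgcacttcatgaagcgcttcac
Cxcl11 (chr14:15973478-15973727, plus strand): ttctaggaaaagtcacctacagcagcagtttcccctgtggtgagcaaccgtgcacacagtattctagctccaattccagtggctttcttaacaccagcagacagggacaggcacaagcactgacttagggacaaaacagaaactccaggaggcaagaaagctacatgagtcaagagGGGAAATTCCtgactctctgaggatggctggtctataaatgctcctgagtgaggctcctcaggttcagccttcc
The NF-kB motif was found in 5 of the 6 promoters, those of Ccl7, Cxcl1, Cxcl2, Cxcl10 and Cxcl11, and in 4.53% of 33469 rat promoters of the same length. Cxcl16 held no match in this window. The interferon response motif was found in Cxcl10 alone of the 6, and in 3.41% of all promoters, at 243 to 234 bases before the start. These matches describe the letters only.

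Total counts per library lay between 27270026 and 38271014. Summed CPM (counts per 1000000 after TMM scaling) of 6 neuron markers ran from 2156 to 8780 over the 18 libraries, with none of the 6 at 0 in a whole group. Library SAH 1d-3 and library SAH 7d-5 stood apart from the other 5 of their groups in leukocyte markers, with values given below, and the chemokine changes are given with and without them. A gene was called a DEG when edgeR's quasi-likelihood F test gave a Benjamini-Hochberg adjusted p under 0.05 and a change of at least 2-fold, with 6 libraries against 6. The 3 comparisons share their groups, so they are not independent. The labels give no batch.

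**Figure D1:**
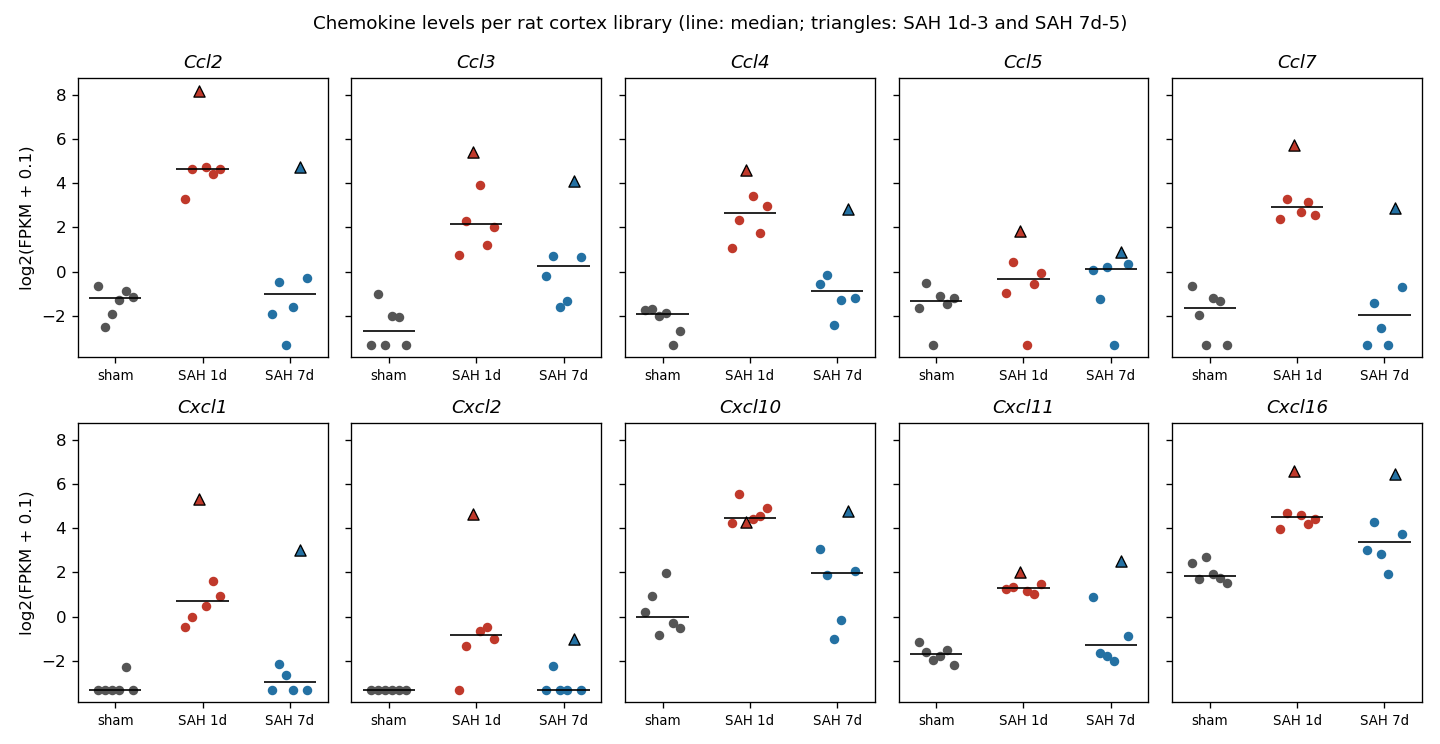
Each panel shows 1 chemokine as log2(FPKM + 0.1) in the 18 libraries (FPKM is fragments scaled to gene length and sequencing depth), with a line at the median of each group and triangles for the libraries that stood apart. At SAH 1d the points of 8 of the 10 genes lay above every sham point, and at SAH 7d the points of all 10 genes overlapped the sham points.

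Ccl2, the main monocyte attractant, had the highest median FPKM of the set at SAH 1d. Its CPM was 0.0691 at the lowest, 0.304 at the median and 0.533 at the highest in the sham group, which came from 2 to 16 counts per library. At SAH 1d the values were 8.02, 20.1 and 247.3 CPM, and every SAH 1d library lay above every sham library. Ccl2 was upregulated with a log2 fold change of 7.56 (SE 1.04, adjusted p = 0.000414). Without SAH 1d-3, which held the 247.3 CPM, the log2 fold change was 5.89 (SE 0.36, adjusted p = 6.36e-07), a 59.1-fold change. At SAH 7d the CPM was 0, 0.376 and 22.7 at the lowest, median and highest, and 3 of the 6 libraries lay above every sham library. The gene had no count at all in SAH 7d-3.

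Ccl7, which lies next to Ccl2 and signals to the same monocyte receptor, had 0, 0.201 and 0.533 CPM at the lowest, median and highest in the sham group, with a count in 4 of 6 libraries. At SAH 1d it had 4.25, 6.66 and 46.6 CPM, again without overlap with sham. It was upregulated with a log2 fold change of 5.91 (SE 0.87, adjusted p = 0.000653). This was 4.81 (SE 0.54, adjusted p = 4.79e-05), a 28.1-fold change, when SAH 1d-3 was left out. At SAH 7d it had 0, 0.154 and 6.40 CPM, with no count in 2 libraries, and 1 library, SAH 7d-5, lay above every sham library. Between these genes Ccl2 had the higher FPKM in all 6 SAH 1d libraries, with a ratio of Ccl7 to Ccl2 between 0.185 and 0.521.

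Ccl3 and Ccl4, which macrophages and microglia make, are also neighbours. Ccl3 had 0, 0.0617 and 0.345 CPM at the lowest, median and highest in the sham group and 1.21, 3.21 and 32.9 CPM at SAH 1d. It was upregulated with a log2 fold change of 6.43 (SE 1.08, adjusted p = 0.00148), or 5.30 (SE 0.81, adjusted p = 0.000455) without SAH 1d-3. At SAH 7d it was counted in all 6 libraries, at 0.194, 0.913 and 13.0 CPM, whereas 3 sham libraries had no count. Of these SAH 7d libraries 4 lay above every sham library.
Ccl4 had 0, 0.119 and 0.173 CPM in the sham group, 1.27, 3.87 and 15.7 CPM at SAH 1d and 0.0645, 0.308 and 4.59 CPM at SAH 7d. The SAH 1d values did not overlap sham, and the log2 fold change was 5.67 (SE 0.72, adjusted p = 0.000228), or 5.01 (SE 0.54, adjusted p = 3.74e-05) without SAH 1d-3. At SAH 7d 5 of 6 libraries lay above every sham library. The FPKM ratio of Ccl3 to Ccl4 lay between 0.512 and 1.74 at SAH 1d and ran from 1.33 to 2.38 in those 3 libraries of SAH 7d that held at least 10 counts of each. These ranges overlap.

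Ccl5, a T cell and monocyte attractant, was the only one of the 10 that was not called at SAH 1d. Its CPM was 0, 0.182 and 0.345 at the lowest, median and highest in the sham group, 0, 0.388 and 1.90 at SAH 1d and 0, 0.585 and 0.997 at SAH 7d. The 3 groups overlapped, and each held 1 library with no count. The log2 fold change of SAH 1d versus sham was 1.75 (SE 0.80, adjusted p = 0.122) and did not pass the threshold. It passed only without SAH 1d-4, the library with no count (log2 fold change 2.01, adjusted p = 0.0460), and it was 0.91 (SE 0.71, adjusted p = 0.367) without SAH 1d-3. For SAH 7d versus sham it was 1.50 (SE 0.75, adjusted p = 0.354). Its SAH 7d median was above that at SAH 1d, a difference within the spread of both groups.

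Cxcl1 and Cxcl2, the neutrophil attractants, were at or near 0 in sham cortex. Cxcl1 had a count in 1 of 6 sham libraries (0.132 CPM in sham-5) and in all 6 SAH 1d libraries, at 0.573, 1.46 and 37.4 CPM at the lowest, median and highest. It was upregulated, and the fitted log2 fold change was 8.15 (SE 1.55, adjusted p = 0.00287), or 5.74 (SE 0.78, adjusted p = 0.000212) without SAH 1d-3. With so few sham counts this value depends on the prior count of the fit. At SAH 7d it was counted in 3 libraries, and SAH 7d-5 held 7.58 CPM against at most 0.121 CPM in the other 5.
Cxcl2 had no count in any of the 6 sham libraries and a count in 5 of 6 SAH 1d libraries, at 0, 0.519 and 27.1 CPM. Against a floor of 3 counts over the sham group, its mean at SAH 1d was at least 299.8-fold higher, and at least 25.4-fold higher without SAH 1d-3. The edgeR test gave an adjusted p of 0.0327. Leaving out any 1 of sham-2 to sham-6 moved it to between 0.0506 and 0.0536, so that the call was lost, and without SAH 1d-3 it was 0.00901. At SAH 7d it was counted in 2 libraries, at no more than 0.453 CPM. In the 5 SAH 1d libraries with at least 10 counts of both genes, the FPKM of Cxcl2 was 0.214 to 0.626 of that of Cxcl1.

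Cxcl10, the CXCR3 ligand induced by interferon, was counted in all 18 libraries. It had 0.606, 1.13 and 4.63 CPM at the lowest, median and highest in the sham group and 20.8, 25.8 and 52.1 CPM at SAH 1d, with no overlap. It was upregulated with a log2 fold change of 4.10 (SE 0.47, adjusted p = 0.000102), or 4.17 (SE 0.46, adjusted p = 4.19e-05) without SAH 1d-3. Cxcl10 was the only one of the 10 that SAH 1d-3 did not lead in its group, where it ranked 5 of 6 with 22.3 CPM, and SAH 1d-2 was the highest. At SAH 7d the values spread from 0.484 over a median of 4.59 to 31.8 CPM, and 3 of 6 libraries lay above every sham library.
Cxcl11, its neighbour and a ligand of the same receptor, had 0.198, 0.344 and 0.633 CPM in the sham group. At SAH 1d it had 3.04, 3.56 and 6.31 CPM, and its highest library was 2.08 times its lowest, beside 2.50 times for Cxcl10, the smallest such ratios of the 10 genes in that group. Its log2 fold change against sham was 3.44 (SE 0.29, adjusted p = 1.82e-05), or 3.26 (SE 0.25, adjusted p = 3.96e-06) without SAH 1d-3. At SAH 7d it had 0.274, 0.548 and 8.97 CPM, and 3 libraries lay above every sham library. The FPKM of Cxcl11 was 0.0506 to 0.205 of that of Cxcl10 at SAH 1d.

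Cxcl16, the transmembrane chemokine, was the most abundant of the 10 in sham cortex. It had 5.12, 6.27 and 11.9 CPM at the lowest, median and highest in the sham group, 26.0, 38.9 and 167.4 CPM at SAH 1d and 6.64, 19.3 and 151.6 CPM at SAH 7d. The SAH 1d libraries lay above every sham library, and 5 of 6 SAH 7d libraries did so. The log2 fold change of SAH 1d versus sham was 2.93 (SE 0.46, adjusted p = 0.00104), a 7.61-fold change, or 2.23 (SE 0.22, adjusted p = 2.24e-05) and 4.68-fold without SAH 1d-3. It was the smallest change among the 9 called genes and started from the highest sham level.

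Against sham, 9 of the 10 chemokines were called higher at SAH 1d, where 5.57% of the 18444 genes tested were called higher. The median log2 fold change of the 10 was 5.79, also with Cxcl2 set to its bound, beside 0.0086 over all genes tested. All 10 passed the filter on low counts, but 8 of them reached its level of 0.326 CPM in at most 3 sham libraries and passed through the SAH libraries. The other two, Cxcl10 and Cxcl16, reached it in all 18 libraries, and both were called. In 8 of the 10 every SAH 1d library lay above every sham library, as in 7.88% of the genes tested. The exceptions were Ccl5, with 3 libraries above, and Cxcl2, with 5. With both libraries that stood apart left out, Cxcl2 no longer passed the filter and 8 of the 9 genes tested were called, against 4.51% of all genes.

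**Figure D2:**
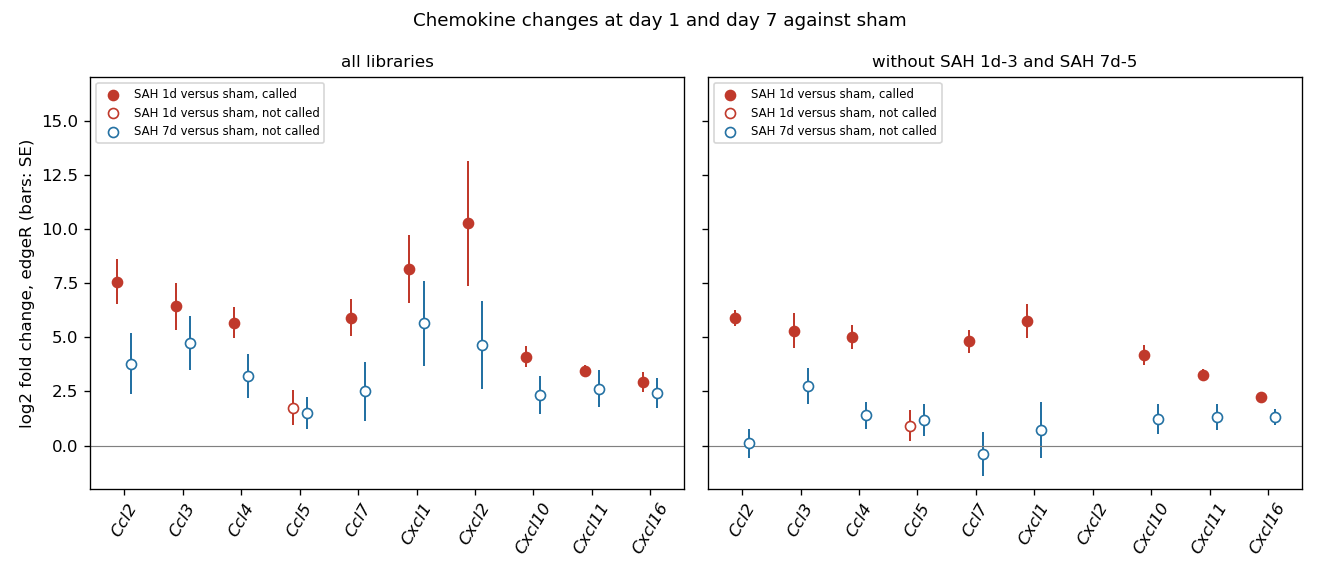
Points are edgeR log2 fold changes of each chemokine at SAH 1d and SAH 7d against sham with bars of 1 SE, from all libraries (left) and without both libraries that stood apart (right). Filled points were called, and Cxcl2 has no point on the right because it was not tested there. The SAH 7d points of Ccl2, Ccl7 and Cxcl1 came near 0 on the right, while those of Ccl3 and Cxcl16 stayed above it by more than 3 SE.

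Over the 10 genes the edgeR log2 fold change of SAH 7d versus sham ran from 1.50 to 5.63 with all libraries, and differences among the genes were not tested. None was called against sham in edgeR, where 0% of all genes were called in either direction, although 7 of the 10 had an unadjusted p under 0.05. Their median log2 fold change was 2.91, or 2.59 with Cxcl2 at its bound, beside -0.0039 over all genes. DESeq2 gave an adjusted p to 5 of the 10 and called Cxcl11 and Cxcl16, where it called 1.94% of all genes higher. The log2 fold change of Cxcl11 was 2.63 at an SE of 0.81 (DESeq2 adjusted p = 0.0449), and that of Cxcl16 was 2.42 at an SE of 0.61 (DESeq2 adjusted p = 0.00829). Without both libraries that stood apart, DESeq2 called Cxcl16 (log2 fold change 1.29, SE 0.35, adjusted p = 0.0162) and no other of the 3 genes it gave an adjusted p to, where it called 1.21% of all genes higher. No chemokine had all 6 SAH 7d libraries above every sham library, which held for 0.797% of all genes. At least 4 of 6 did so for Ccl3, Ccl4, Ccl5 and Cxcl16, as for 8.63% of all genes.

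Levels at SAH 7d and SAH 1d can be set side by side for the 10 genes, as a description without a test of the differences among them. Ratios of the medians come first and do not subtract the sham level. The sham median of Cxcl16 was 6.27 CPM, and that of Ccl7, at 0.201 CPM, lay above its SAH 7d median of 0.154 CPM. The SAH 7d median of Ccl5, which was not called at SAH 1d, was 151% of its SAH 1d median. The SAH 7d median was 49.6% of the SAH 1d median for Cxcl16, 28.4% for Ccl3, 17.8% for Cxcl10, 15.4% for Cxcl11 and 7.97% for Ccl4. It was 2.30% for Ccl7, 2.22% for Cxcl1 and 1.87% for Ccl2, and 0 for Cxcl2. On the log2 scale, without both libraries that stood apart, the change against sham at SAH 7d was 58.2% of that at SAH 1d for Cxcl16, 51.9% for Ccl3, 39.9% for Cxcl11, 29.5% for Cxcl10 and 28.0% for Ccl4. For Cxcl1 it was 12.3% and for Ccl2 1.67%, and for Ccl5, from an uncalled change, 131%. Cxcl2 was not tested there. In those libraries the log2 fold change of SAH 7d versus sham was 2.75 for Ccl3 (SE 0.83, adjusted p = 0.181) and 1.30 for Cxcl16 (SE 0.37, adjusted p = 0.164), and it was 0.10 for Ccl2 (SE 0.68, adjusted p = 0.968). Ccl7 was at -0.40 (SE 1.00, adjusted p = 0.908), where all libraries together had given 2.51 (SE 1.36, adjusted p = 0.377).

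From SAH 1d to SAH 7d no chemokine was called with all libraries, where 0.542% of all genes were called lower. An unadjusted p under 0.05 was found for 5 of the 10, DESeq2 called 0 of the 6 it gave an adjusted p to and 1.22% of all genes lower, and limma on FPKM with the low-value filter called Ccl2 and Ccl7. The outcome turned on SAH 7d-5. Without it 8 of the 10 were called lower at SAH 7d, all but Ccl5 and Cxcl16, against 2.03% of all genes. With SAH 1d-3 left out instead, none was called. With both left out, 7 of the 9 genes tested were called lower, against 2.12% of all genes. The changes were then a decrease of Ccl2 by 5.81 on the log2 scale (log2 fold change -5.81, SE 0.51, adjusted p = 9.54e-05), of Ccl7 by 5.24 (-5.24, SE 0.60, adjusted p = 0.000402) and of Cxcl1 by 5.04 (-5.04, SE 0.74, adjusted p = 0.00172). Ccl4 changed by -3.62 (SE 0.54, adjusted p = 0.00187), Cxcl10 by -2.97 (SE 0.60, adjusted p = 0.00779), Ccl3 by -2.57 (SE 0.67, adjusted p = 0.0257) and Cxcl11 by -1.97 (SE 0.55, adjusted p = 0.0341). Cxcl16 was at -0.95 (SE 0.35, adjusted p = 0.0940), and Ccl5 at 0.26 (SE 0.80, adjusted p = 0.869). Without SAH 7d-5, all 5 SAH 7d libraries lay below every SAH 1d library for Ccl2, Ccl4, Ccl7, Cxcl1, Cxcl10 and Cxcl11, as for 5.43% of all genes. Leaving SAH 7d-5 out takes away the highest SAH 7d value of all 10 chemokines, but of only 38.6% of all genes. It thus favours lower calls for the 10, and the shares over all genes in the settings without it are not a like background.

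SAH 7d-5 was the highest of its group for all 10 chemokines, and it was so for 38.6% of all genes tested. Its CPM exceeded the median of the other 5 SAH 7d libraries 111-fold for Ccl2, 99.3-fold for Ccl7, 24.6-fold for Cxcl11, 20.8-fold for Ccl3, 19.7-fold for Ccl4, 10.6-fold for Cxcl16 and 7.38-fold for Cxcl10, and 1.79-fold for Ccl5. For 8 of the 10 it lay at or above the SAH 1d median. SAH 1d-3 was the highest of its group for 9 of the 10, and for 33% of all genes. It exceeded the median of the other 5 SAH 1d libraries 62.9-fold for Cxcl2, 29.8-fold for Cxcl1, 12.4-fold for Ccl2, 11.3-fold for Ccl3 and 8.35-fold for Ccl7, but 1.80-fold for Cxcl11 and 0.830-fold for Cxcl10. Cxcl1 and Cxcl2 have no such ratio in SAH 7d-5, because the median of the other 5 libraries was 0.

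**Figure D3:**
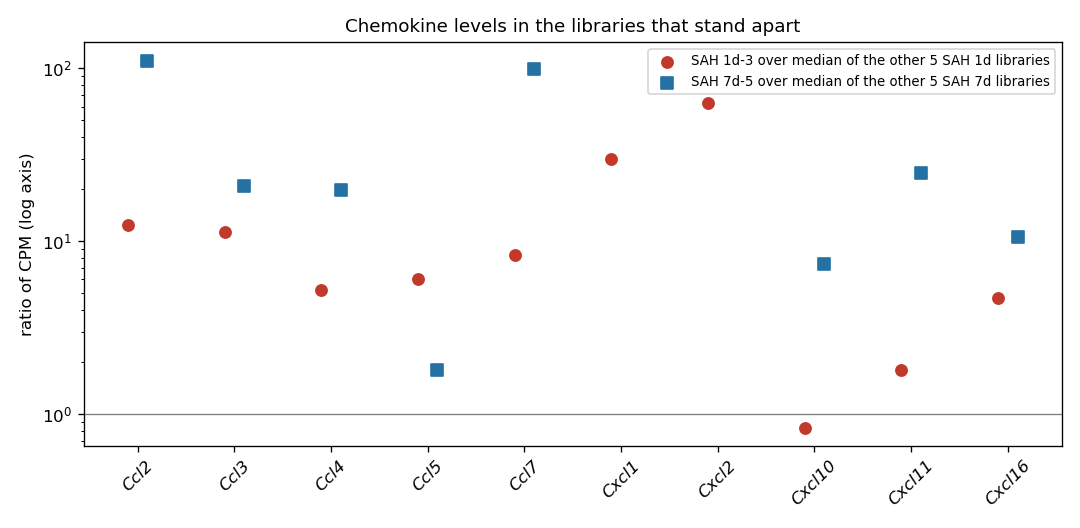
Ratios of CPM, on a log axis, of the libraries that stood apart (SAH 1d-3, SAH 7d-5) to the median of the other 5 libraries of their groups, for each chemokine. The line marks a ratio of 1, below which lay Cxcl10 in SAH 1d-3 alone, and Cxcl1 and Cxcl2 have no SAH 7d-5 point because the median of the other 5 libraries was 0.

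Some leukocyte markers moved with these libraries. Summed CPM of 6 monocyte and macrophage markers was 51.4 to 93.8 in the sham group, 98.3 to 136 in the other SAH 1d libraries and 634 in SAH 1d-3. It was 94.0 to 285 in the other SAH 7d libraries and 8762 in SAH 7d-5, of which Lyz2 made up 7993 CPM and Cd68 557 CPM. In SAH 1d-3 Lyz2 made up 466 CPM and Cd14 132 CPM. Its Cd163, Mrc1 and Ms4a7 values lay within the range of the other SAH 1d libraries. Of the 6 monocyte and macrophage markers 4 were called higher at SAH 1d against sham, beside 5.57% of all genes tested. The 7 neutrophil markers summed to 1.92 to 7.10 CPM in the sham group, 6.62 to 15.2 in the other SAH 1d libraries, 64.6 in SAH 1d-3, 3.69 to 21.1 in the other SAH 7d libraries and 219.9 in SAH 7d-5. The neutrophil calprotectin gene S100a9 was at 30.5 CPM in SAH 1d-3 and at 0.695 CPM in SAH 7d-5, where Mmp8 (129.6 CPM) and Csf3r (89.1 CPM) made up the sum, and Mpo was at 0 in both. The 5 T cell markers summed to at most 2.33 CPM outside SAH 7d-5 and to 248 CPM in it, of which Cd8a made up 243 CPM and Cd3e 1.99 CPM. The microglia markers summed to 1895 CPM and the meningeal fibroblast markers to 2396 CPM in SAH 7d-5, against at most 772 and 366 in the other SAH 7d libraries, and the neuron markers to 2156 against at least 6007. In SAH 1d-3 the microglia markers summed to 178 CPM, against 228 to 287 CPM in the other SAH 1d libraries. Other markers moved with the SAH 1d group as a whole. The 5 astrocyte markers summed to 3510 to 4726 CPM at SAH 1d and 1170 to 2281 CPM in the sham group, without overlap, and the neuron markers to 4332 to 5390 CPM against 5374 to 8780 CPM. Of the 5 astrocyte markers 1 was called higher at SAH 1d against sham, beside 5.57% of all genes tested. Of the 6 neuron markers 0 were called in either direction. The 5 choroid plexus markers reached 1026 CPM in the highest SAH 1d library, with a group median of 41.4 CPM, against at most 67.2 CPM in the sham group. The 4 endothelial markers summed to 263 CPM in SAH 1d-3 and at most 138 CPM in the other SAH 1d libraries. The number of chemokines called at SAH 1d against sham was 9 with SAH 1d-3 and 9 without it. The other SAH 1d libraries also lay above sham in the monocyte and macrophage and the astrocyte sums. This count therefore cannot tell the part of these cells in the chemokine levels, which was not tested.

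The make-up of the set changed between the groups. Summed FPKM of the 10 genes was 4.22 to 9.07 in the sham group (median 7.00), 55.9 to 603 at SAH 1d (median 104.5) and 5.51 to 188.6 at SAH 7d (median 21.3). On the FPKM scale, which takes account of gene length, Cxcl16 made up 41.1% to 87.4% of the sum in the sham group, 16.1% to 27.7% at SAH 1d and 39.3% to 77.5% at SAH 7d. The SAH 1d range overlapped neither of the others. Ccl2 made up 17.4% to 48.5% of the sum at SAH 1d, against at most 8.40% in the sham group and at most 14.1% at SAH 7d. Cxcl10 made up 29.2% at the SAH 1d median, and 3.23% in SAH 1d-3. By median FPKM the order began with Cxcl16, Cxcl10 and Ccl2 in the sham group (3.50, 0.893 and 0.331), with Ccl2, Cxcl16 and Cxcl10 at SAH 1d (24.9, 23.0 and 22.4) and with Cxcl16, Cxcl10 and Ccl3 at SAH 7d (10.7, 3.83 and 1.13). Cxcl2 came last at SAH 1d and SAH 7d, and in the sham group its median was 0, as was that of Cxcl1. The ranges of all neighbours in these orders overlapped.

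**Figure D4:**
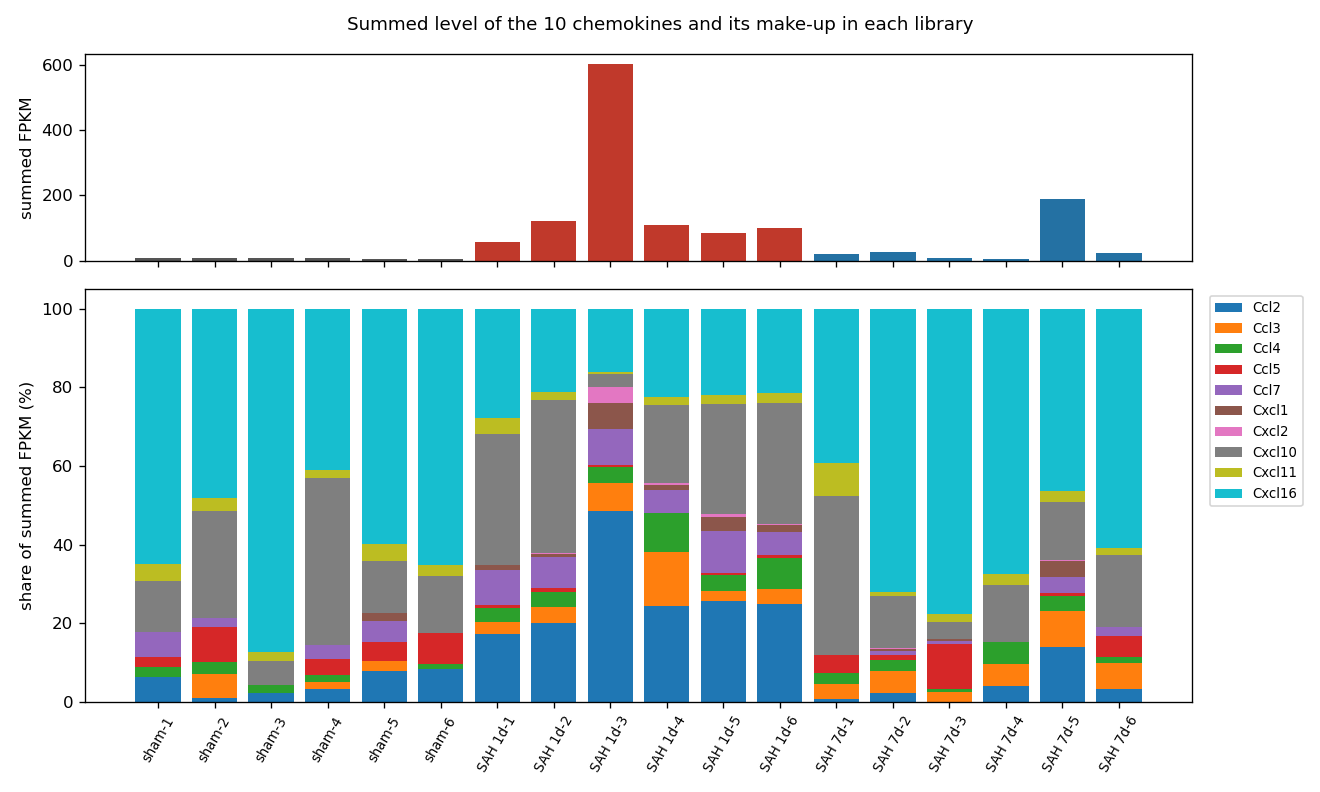
The upper bars give the summed FPKM of the 10 chemokines in each library, and the lower bars the share of each gene in that sum. Cxcl16 took the largest share in 5 of 6 sham and 5 of 6 SAH 7d libraries, and Ccl2 or Cxcl10 took it in each of the 6 SAH 1d libraries.

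Across the 18 libraries, the likeness of 2 genes was measured as the mean absolute difference of their ranks, over 14048 other genes with a mean of at least 1 CPM. The 5 genes closest to Ccl2 were AC128848.1, Plaur, Tnfaip3, Bcl3 and Dpagt1, with differences of 1.33 to 1.44 ranks. Those closest to Cxcl10 were Gbp2, Nvl, Mthfd2, Rsad2 and Gbp5 (1.33 to 1.67), and those closest to Cxcl16 were Anxa2, Ch25h, Fgl2, Hk3 and Cyp1b1 (0.778 to 1.00). Among the 10 themselves, the pairs Ccl3 with Ccl4 and Ccl3 with Cxcl16 were closest (1.56), and Ccl5 differed from each of the other 9 by 3.56 to 4.44 ranks. All genes share the same libraries, and the group differences and the libraries that stood apart enter every value.

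Of 9 listed receptors of these chemokines, Ccr2 and Ackr1 were not analysed here, and 4 of the other 7 passed the filter on low counts. Beside 5.57% of all genes tested, 1 of the 4 was called higher at SAH 1d against sham. This was Ccr1, a receptor of CCL3, CCL5 and CCL7, at a log2 fold change of 3.55 (SE 1.03, adjusted p = 0.0244), and the call was lost without both libraries that stood apart (1.08, adjusted p = 0.0652). Its level was 38.4 CPM in SAH 1d-3 and 0.594 to 2.08 CPM in the other SAH 1d libraries. Ccr3 was called lower at SAH 1d against sham without both libraries that stood apart (log2 fold change -1.45, SE 0.31, adjusted p = 0.00418), and the decoy receptors Ackr2 and Ackr3 were not called against sham. In that setting Ccr3 (log2 fold change 2.05, SE 0.48, adjusted p = 0.0164) and Ackr2 (1.07, SE 0.24, adjusted p = 0.0130) were called higher at SAH 7d against SAH 1d, whereas no receptor was called there with all libraries. Cxcr2, the receptor of CXCL1 and CXCL2, was not tested and stood at 6.66 CPM in SAH 1d-3 and at most 0.537 CPM in every other library. Cxcr3 and Cxcr6 were not tested either and were highest in SAH 7d-5, at 1.63 and 1.60 CPM, against at most 0.383 and 0.507 CPM elsewhere.

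Of 25 other chemokines, 13 passed the filter and 4 of them were called higher at SAH 1d and 1 lower. Of all 18444 genes tested 5.57% were called higher and 196 genes lower. Ccl12 had no count in the sham group and 0.513 to 2.37 CPM at SAH 1d (adjusted p = 0.000335), and Cxcl17, Ccl6 and Cxcl13 had log2 fold changes of 2.27, 2.39 and 1.94. The call of Ccl6 was lost without both libraries that stood apart. Cxcl12, the chemokine that retains cells through CXCR4, fell by 1.33 on the log2 scale (SE 0.20, adjusted p = 0.000679) and was called higher at SAH 7d against SAH 1d (log2 fold change 1.25, SE 0.26, adjusted p = 0.0363). Without both libraries that stood apart, which held 20.1 CPM (SAH 1d-3) and 155.3 CPM (SAH 7d-5), the latter change was 0.91 (SE 0.16, adjusted p = 0.00350), under 2-fold, so that the call was lost. Ccl12 was named after its values were seen.

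Of 13 inducing cytokines and NF-kB pathway genes, 9 were called higher at SAH 1d against sham and none lower. Of all genes tested 5.57% were called higher. The median log2 fold change over the 13 was 1.65. Without both libraries that stood apart 8 of 13 were called higher, beside 4.51% of all genes. The NF-kB inhibitor gene Nfkbia had a log2 fold change of 1.65 (SE 0.33, adjusted p = 0.00396), Cebpb of 2.14 (SE 0.32, adjusted p = 0.000685), Nfkb2 of 1.92 (SE 0.33, adjusted p = 0.00156) and Relb of 1.64 (SE 0.31, adjusted p = 0.00259). The called cytokines, named after their values were seen, were Il6, Il1b and Tnf, with log2 fold changes of 6.50, 5.17 and 2.49. Without both libraries that stood apart these were 3.24, 2.76 and 2.32. The cytokine Il1a of the same list was not called (1.48, SE 0.68, adjusted p = 0.124), nor without both libraries (0.43, SE 0.48, adjusted p = 0.542). At SAH 7d against sham none of the 13 was called. Of 6 interferon pathway genes tested, 3 were called higher at SAH 1d against sham, beside the same 5.57% of all genes, and none at SAH 7d. They were Rsad2 (log2 fold change 2.69, SE 0.60, adjusted p = 0.00667), Isg15 (1.83, SE 0.58, adjusted p = 0.0344) and Irf1 (1.70, SE 0.27, adjusted p = 0.000954). Of the CXCL16 sheddases, Adam17 rose by less than 2-fold at SAH 1d (log2 fold change 0.66, adjusted p = 0.0197), and Adam10 did not pass (0.14, adjusted p = 0.246).

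**Figure D5:**
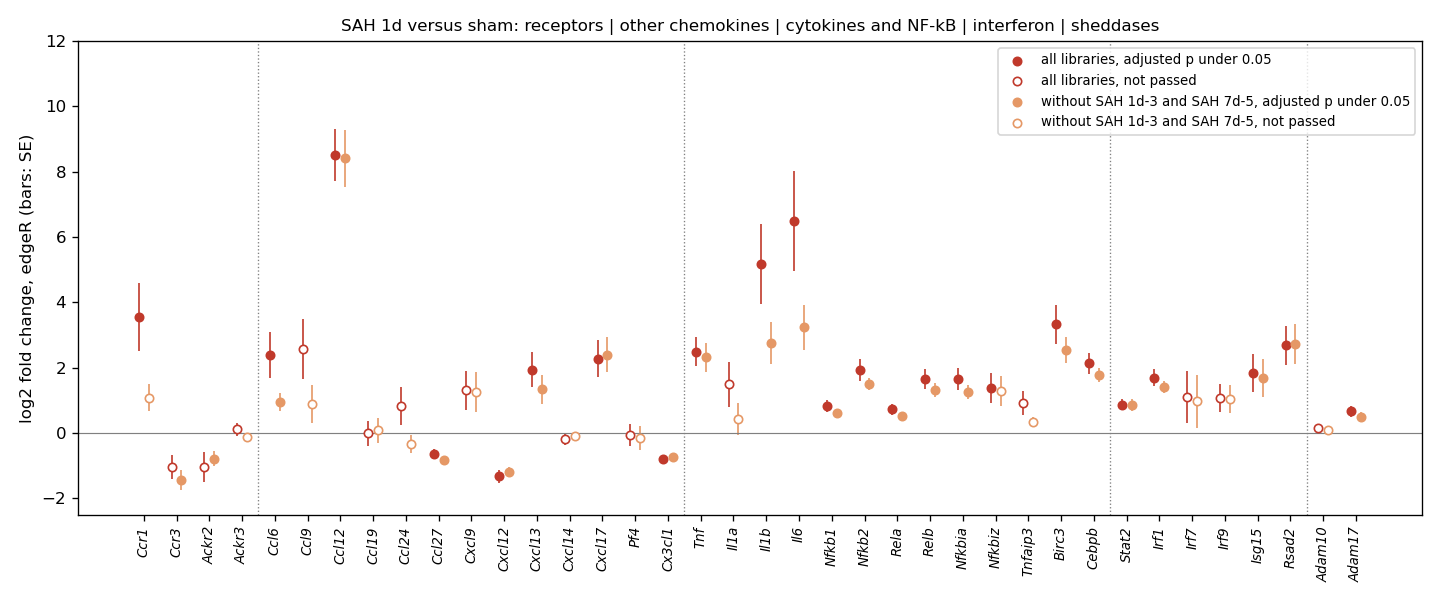
Log2 fold changes of SAH 1d versus sham with bars of 1 SE for the receptors, other chemokines, inducing cytokines and NF-kB genes, interferon genes and sheddases that passed the filter, from all libraries and without both libraries that stood apart. Filled points had an adjusted p under 0.05 with Il6 at 6.50 from all libraries and 3.24 in the other setting.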

How the data were processed

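RNA from the cortex of 18 rats was sequenced with 1 library per rat. The authors deposited raw whole-number counts for every gene in each library, and FPKM values in which they scaled fragments to transcript length and mapped reads. The authors' methods name the Rnor_6.0 genome, whereas the submitters' processing notes list fastp, HISAT2, DESeq2 1.16.1 and a mouse build, so the build is uncertain and no coordinate of the files is printed. How reads were counted, and whether by strand, was not given in the sources used here, so overlapping or near-identical genes may share reads. Groups and replicate numbers came from the sample descriptions. Total counts were 27270026 to 38271014 per library. Replicates are separate rats by their labels, and the precision given is the spread between rats.

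The counts went into edgeR 4.0.16 (R 4.3.3). Its filterByExpr kept genes over 18 libraries (18444 were kept; the 30735 deposited genes include 8685 loci outside the annotation), scaled by TMM, and compared with the two-sided quasi-likelihood F test on 12 libraries at a time. A gene was called at a Benjamini-Hochberg adjusted p under 0.05 over all genes tested and a change of 1 or more on the log2 scale. SE is the log2 fold change divided by the root of F. Alternatives were DESeq2 1.42.0, limma 3.58.1 on log2(FPKM + 1) and log2(FPKM + 0.1) with a mean FPKM of at least 0.5 or no filter, other filters and scalings, 1 fit of all libraries, a replicate block, each library left out, and both libraries that stood apart (SAH 1d-3, SAH 7d-5) left out. DESeq2 without those libraries was chosen after seeing the data. Tests were tested on simulated data. DESeq2 gave no adjusted p to some genes, which were left out of its counts of chemokines. Its shares over all genes were taken over every gene that passed the filter, including those without an adjusted p. Tables and figures were made with Python 3.11.15, pandas 2.3.3 and matplotlib 3.10.9.

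The chemokines and the other gene lists were chosen with earlier results of these data known. All 10 chemokines are named. Of each other list the text names the receptors and the 4 called genes with the highest mean CPM, and by likeness the 5 nearest genes to Ccl2, Cxcl10 and Cxcl16. Neighbouring gene pairs were chosen after their values were seen. Some genes of the lists are not reported here. Promoter letters and gene order are from RefSeq GRCr8.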

Additional observations from a re-analysis of the deposited data

Results flagged for a closer look

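In each group of 6 libraries the highest or lowest value of a chemokine was compared with its neighbour, and a library was set aside for a closer look when that gap, as a share of the whole range, passed Dixon's critical value at the 95% level. Of 29 groups tested, 18 held such a library. Chance alone gives about 1 in 20, and the 10 genes of a library are not independent.

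SAH 1d-3 was far above the other SAH 1d libraries for 8 genes. Its CPM was 247.3 for Ccl2, 32.9 for Ccl3, 1.90 for Ccl5, 46.6 for Ccl7, 37.4 for Cxcl1, 27.1 for Cxcl2, 6.31 for Cxcl11 and 167.4 for Cxcl16. Ccl4 and Cxcl10 did not pass in this library.

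SAH 7d-5 was far above the other SAH 7d libraries for 9 genes. Its CPM was 22.7 for Ccl2, 13.0 for Ccl3, 4.59 for Ccl4, 6.40 for Ccl7, 7.58 for Cxcl1, 0.453 for Cxcl2, 31.8 for Cxcl10, 8.97 for Cxcl11 and 151.6 for Cxcl16. Ccl5 did not pass in this library.

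In the sham group, sham-5 held all Cxcl1 counts, at 0.132 CPM from 4 counts, so that its gap was the whole range by construction.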

How the results depend on the processing

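For SAH 1d versus sham the number of chemokines called higher was 9, and 8 to 10 when each library was left out in turn. With at least 10 counts asked for in every library it was 2, because only Cxcl10 and Cxcl16 could then be tested. DESeq2 called 6 of the 7 genes it gave an adjusted p to. Ccl2, Ccl3, Ccl4, Ccl7, Cxcl10, Cxcl11 and Cxcl16 (7 genes) were called in every setting that gave them an adjusted p. For SAH 7d versus SAH 1d, 0 were called, and 0 to 8 when each library was left out, with 8 without SAH 7d-5 and 0 without any other library. The number was 2 in limma on log2(FPKM + 1) and 2 on log2(FPKM + 0.1), both with the low-value filter, 7 in edgeR without both libraries that stood apart and 7 in DESeq2 without them. For SAH 7d versus sham, 0 were called, and 0 to 0 when each library was left out, against 2 in DESeq2 and 1 in DESeq2 without both libraries that stood apart. No chemokine had every SAH 7d library above every sham library by CPM, by FPKM or without SAH 7d-5.

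The sign of uncalled values turned for 3 genes. Ccl5 at SAH 7d versus SAH 1d was 0.59 without SAH 1d-3, 0.0085 without SAH 7d-4, 0.26 without both libraries that stood apart and 0.29 in DESeq2 without them, and leaving out each library gave -0.58 to 0.59. Cxcl16 in that comparison was 0.21 without SAH 1d-3, in a range of -1.65 to 0.21. Ccl7 at SAH 7d versus sham was -0.40 without SAH 7d-5 and -0.40 without both libraries, in a range of -0.40 to 3.03. The cause was not tested.

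Replicate numbers are shared by the groups. Same-numbered libraries correlated by -0.32 to 0.29 in their deviations, with at most 2 of 6 above 0.1 in a comparison. These correlations showed no pairing of the rats by number but cannot exclude one. With the replicate block 9 chemokines were called at SAH 1d versus sham, 0 at SAH 7d versus SAH 1d and 0 at SAH 7d versus sham, and at most 1 of 6 numbers correlated best with itself. On the log2(FPKM + 0.1) scale the median of all genes was 0.109 at SAH 1d versus sham, against 0.0086 in edgeR. Depth limits Ccl3, Ccl4, Ccl5, Cxcl1 and Cxcl2, whose sham libraries held 0 to 10 counts. It also limits Ccl7, Ccl2 and Cxcl11, whose sham libraries held 0 to 16, 2 to 16 and 6 to 19 counts.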

Other observations

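Several chemokines outside the set were high in SAH 1d-3, and those given here were named after their values were seen. Ccl20, a ligand of CCR6, stood at 78.5 CPM in SAH 1d-3, at 0.0904 to 0.338 CPM in the other SAH 1d libraries and at 0 in all sham libraries. It was at 1.24 CPM in SAH 7d-5 and at 0 in the other SAH 7d libraries. Cxcl3, a neutrophil attractant like Cxcl1 and Cxcl2, stood at 18.2 CPM in SAH 1d-3 and at no more than 0.894 CPM in any other library. Cxcl6, a further neutrophil attractant, stood at 2.53 CPM in SAH 1d-3 and at 6.25 CPM in SAH 7d-5, against at most 0.341 CPM in the other 16 libraries. Ccl20, Cxcl3 and Cxcl6 did not pass the filter on low counts, so they were not tested. Ccl6, Ccl9 and Ccl24, which passed it, were at 21.6, 5.39 and 5.17 CPM in SAH 1d-3. The other SAH 1d libraries held at most 2.98, 0.676 and 0.852 CPM of them. Pf4, a platelet chemokine, stood at 15.7 CPM in SAH 7d-5 and at no more than 1.64 CPM in the others.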
